A study of Homo sapiens with 3 samples.

Results

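The miR-122 precursor gives hsa-miR-122-5p and hsa-miR-122-3p, and these 2 rows of the 512 miR names in the count table were taken by name and are described here across 3 batches of extracellular vesicles (EVs). HepG2, an established human line, was grown out of a tumor of the liver, and EVs are small particles bounded by membrane that cells shed into the culture medium. The cells were wildtype, carried no added allele or agent, and were grown to near confluence and then moved to medium without serum. EVs were pelleted from 48 h supernatants by centrifugation at 100000 × g for 70 min, and about 200 ng of RNA entered each small RNA library. All 3 batches belong to 1 group, so no treated or control group exists and the batches can only be set against each other. The labels call the cells hepatocytes, but they come from 1 tumor line, and neither the producer cells nor liver tissue was analysed here. Nothing in the sources states that the batches came from separate cultures, so the spread between them may be technical. The batches held 8704, 10834 and 7933 miR counts, and 196 of the 512 names had no count in any of them.

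A miR is cut from a hairpin with 2 arms, and the arm kept by the Argonaute protein pairs through its seed, the bases near its 5′ end, with matches in the 3′ untranslated region (3′ UTR) of mRNAs, whose translation and stability it lowers. miR-122 is the dominant miR of mammalian hepatocytes, where it acts on cholesterol and fatty acid metabolism and on liver cell identity, and it is also a host factor of hepatitis C virus. It is known to fall in many liver tumors and to be low in HepG2 cells against primary hepatocytes.

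The mature sequences of miR-122 and of its hepatocyte reference miRs are shown because every value below is a count of 1 of them, with the seed (bases 2 to 8) in capitals.
hsa-miR-122-5p: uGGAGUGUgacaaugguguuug
hsa-miR-122-3p: aACGCCAUuaucacacuaaaua
hsa-miR-148a-3p: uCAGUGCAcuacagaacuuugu
hsa-miR-192-5p: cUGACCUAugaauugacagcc
Both arms of miR-122 are 22 bases long, and 45.5% of the bases of the 5p arm and 31.8% of those of the 3p arm are G or C. In RefSeq (GRCh38.p14), MIR122 lies on the plus strand of chromosome 18 from 58451074 to 58451158, with the 5p arm at 58451088 to 58451109 and the 3p arm at 58451124 to 58451145. The hairpin of 85 bases is printed because the counts are split by arm, with both arms in capitals and 14 bases between them.
MIR122 hairpin: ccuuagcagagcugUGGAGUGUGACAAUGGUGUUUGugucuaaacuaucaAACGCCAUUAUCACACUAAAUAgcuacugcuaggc
In GENCODE 29 the hairpin falls in exon 2 of 2 of MIR122HG, a long noncoding RNA gene on the same strand that spans 58446275 to 58453766.

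The sequence of miR-122-5p was compared with those of other miRs, since near-identical miRs can share reads. Among 2370 mature miRs in the RefSeq table, no other had the seed of miR-122-5p, and the single miR that shared bases 2 to 7, miR-504-3p, is not a name in the count table. Of the 512 listed names, 451 matched a RefSeq sequence and the rest were not compared, and the closest to miR-122-5p was miR-3591-5p, 5 single-base changes, insertions or deletions away and with 0 counts in every batch. The next closest was miR-206, a muscle miR, at 8 such changes and also 0 counts. MIR3591 is transcribed from the opposite strand of the same locus, from 58451080 to 58451152.
hsa-miR-3591-5p: uUUAGUGUgauaauggcguuuga
hsa-miR-3591-3p: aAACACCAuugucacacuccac
A stretch of 21 bases of miR-3591-3p is complementary to miR-122-5p, and 20 bases of miR-3591-5p are complementary to miR-122-3p. miR-3591-3p is not a listed name, and whether the counting kept strands apart is not given in the sources used here, so its reads and those of miR-122-5p cannot be told apart if strand was ignored.

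miR-122-5p was among the more abundant miRs of the EVs, and its level was uneven between batches. Batches 1 to 3 gave it 216, 98 and 130 counts, or 444 in all. As a share of the miR counts this was 2.48% in batch 1 (95% Wilson interval 2.18 to 2.83%), 0.905% in batch 2 (0.743 to 1.10%) and 1.64% in batch 3 (1.38 to 1.94%). The 3 intervals did not overlap, batch 1 was the highest and batch 2, the deepest library, the lowest. The mean share was 1.67% ± 0.789 (SD, n = 3). Intervals and limits cover counting error only, since the libraries carried no stated molecular identifiers and reads may be copies of 1 molecule, and shares of counts need not equal shares of molecules, because some sequences take up adapters better than others. Fewer vesicles that hold a miR and fewer copies in each vesicle cannot be told apart in these pools.

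By mean raw count miR-122-5p held rank 10, with ranks 10, 16 and 10 in the single batches. It took rank 12 without replicate 1. Its upper neighbor at rank 9 was miR-92a-3p, a member of the oncogenic miR-17-92 cluster, with 268, 218 and 153 counts. The share of miR-122-5p was below that of miR-92a-3p in 3 of 3 batches, by a mean of -0.665 percentage points ± 0.413 (SD). Its lower neighbor at rank 11 was miR-378a-3p, encoded in PPARGC1B, with 143, 142 and 111 counts, and here miR-122-5p was higher in batches 1 and 3 and lower in batch 2, by a mean of 0.224 percentage points ± 0.623. The exact two-sided sign-flip p was 0.25 against miR-92a-3p, the smallest that 3 batches allow, and 0.75 against miR-378a-3p, so this test cannot pass the threshold with 3 batches.

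**Figure D1:**
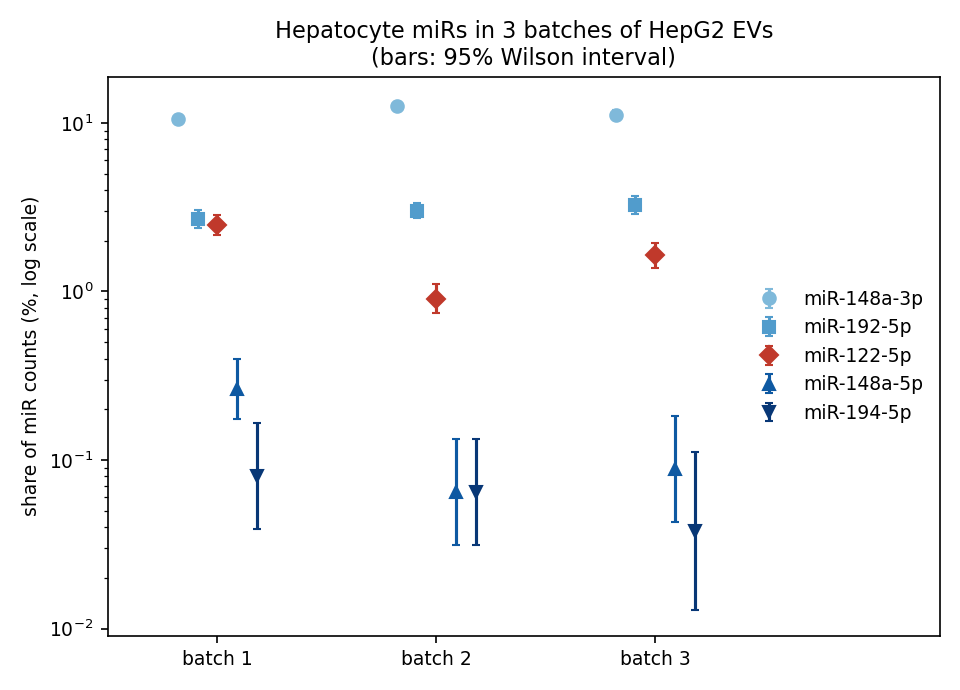
Share of miR counts (%, log scale) of 5 hepatocyte miRs in the 3 batches of HepG2 EVs, with 95% Wilson intervals as bars. miR-148a-3p ran from 10.5 to 12.6% and miR-192-5p from 2.69 to 3.26%, and miR-122-5p from 2.48% in batch 1 to 0.905% in batch 2.

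Of the hepatocyte miRs, miR-148a-3p and miR-192-5p were more abundant than miR-122-5p, and the others had few or no counts. The reference list held 10 names, of which 9 were listed, 7 had a count and 3 reached 30 counts in sum. miR-148a-3p, an abundant liver miR, had 914, 1367 and 888 counts, or 10.5%, 12.6% and 11.2% of the totals. miR-192-5p, shared by liver, gut and kidney, had 234, 327 and 259 counts, or 2.69%, 3.02% and 3.26%. In every batch miR-148a-3p was thus the highest of these, followed by miR-192-5p, then miR-122-5p, and in batch 1 the intervals of miR-192-5p and miR-122-5p overlapped. miR-148a-5p, the minor arm of its precursor, had 23, 7 and 7 counts, and miR-194-5p, which has a gene copy next to miR-192, had 7, 7 and 3. miR-215-5p, which shares the seed of miR-192-5p, had 3, 1 and 0 counts. The others were at or near the limit of detection, with 2, 0 and 0 counts of miR-194-3p, 1, 0 and 1 of miR-101-3p and none of miR-192-3p and miR-802, and miR-885-5p is not a listed name. A miR without a count could still hold up to 0.0345%, 0.0277% and 0.0378% of the totals (3 counts each).

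miR-122-5p took up an uneven part of this hepatocyte signal. Among the counts of the list and miR-122 together (1400, 1807 and 1288), miR-122-5p made up 15.4% in batch 1 (Wilson interval 13.6 to 17.4%), 5.42% in batch 2 (4.47 to 6.57%) and 10.1% in batch 3 (8.56 to 11.9%). The mean was 10.3% ± 5.01 (SD, n = 3), and again the intervals did not overlap. The sum of the rest of the list varied little beside this, with 13.6%, 15.8% and 14.6% of the totals (mean 14.7% ± 1.09). That sum was mostly miR-148a-3p and miR-192-5p and does not speak for each member. The share of miR-148a-5p was 0.264% in batch 1, 0.0646% in batch 2 and 0.0882% in batch 3.

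Of the miRs with known roles in liver lipid metabolism, 4 of 5 names were listed and 3 had a count. miR-378a-3p was the only one above 10 counts in a batch, at 1.64%, 1.31% and 1.40% of the totals. miR-27b-3p had 6, 0 and 7 counts and miR-34a-5p 1, 1 and 0, while miR-33a-5p, encoded in the sterol regulator gene SREBF2, was at 0 and miR-33b-5p is not a listed name.

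The labelled cell type was checked against marker miRs. The 4 listed hepatocyte markers of 5 (miR-122-5p, miR-192-5p, miR-194-5p and miR-148a-3p) all had counts and summed to 15.8 to 16.6% of the totals, of which miR-148a-3p alone held 10.5 to 12.6%. Of the listed miRs of the hepatocyte list that are not among these markers, miR-148a-5p had 23, 7 and 7 counts. The others were at or near 0, with miR-802 at 0 in every batch. Markers of other cell types were low or at 0, the highest being the endothelial miR-126-3p and the stromal miR-145-5p with 7 counts in batch 1. The hepatocyte marker miR-194-5p, with 7, 7 and 3 counts, was about as low. Of 7 blood cell miRs 2 had a count (0, 2 and 1 in sum), with the red cell miR-451a at 0, of 2 endothelial miRs miR-126-3p alone was seen (7, 2 and 2), and 3 of 6 stromal and stellate cell miRs summed to 10, 4 and 5 counts, or 0.0369 to 0.115%. Muscle markers summed to 1, 0 and 0 counts, and the neuronal miR-9-5p was at 0. The endothelial and stromal sums were highest in batch 1 and lowest or tied for lowest in batch 2, the batches in which miR-122-5p was also highest and lowest, and their part in the result was not tested.

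To find out whether the batches differed in miR-122-5p by more than counting noise, the 64 miRs that had 30 or more counts over the batches together were put through an exact multinomial test. miR-122-5p differed between batches (adjusted p = 8.13e-16, exact multinomial test with Benjamini-Hochberg adjustment over 64 miRs). Differences between batches were common, since 25 of the 64 miRs passed (39.1%; 28 at an unadjusted p under 0.05), and this test sets 1 library per batch against counting noise. The p of miR-122-5p was the 4th smallest of the 64. Its coefficient of variation of the share was 47.1%, against 8.29% from counting alone at its depth, and ranked 11 of 64, where the median was 23.1% and the range 4.39 to 84.2%. Among the 10 miRs with at least as many counts as miR-122-5p it ranked 2. Its highest share was 2.74 times its lowest, against a median of 1.58 over the 64 miRs. Of its hepatocyte references, miR-148a-3p also differed between batches, by 1.20 times from lowest to highest and with batch 2 the highest (adjusted p = 0.000271, exact multinomial test), and miR-192-5p had an adjusted p of 0.179 in the same exact test. The reference miR-148a-5p differed more widely than miR-122-5p, by 4.09 times, on 23, 7 and 7 counts (adjusted p = 0.00349, exact multinomial test). Its batches had the same order as those of miR-122-5p. With 7 counts in both, batch 3 stood above batch 2 only through its smaller total.

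The order of the batches, 1 above 3 above 2, was shared by 17 of the 64 miRs tested and by 8 of the 25 that differed. In several of these 8, miR-148a-5p and miR-425-5p among them, batches 2 and 3 had equal counts and only the totals set their order. Batch 1 was the highest for 19 of those 25, and batch 2 the lowest for 8 of the 25, miR-122-5p included. The 3 miRs whose pattern over the 3 batches was closest to that of miR-122-5p, by the Euclidean distance of centered log2 shares, were miR-22-3p (distance 0.294), miR-425-5p (0.383) and miR-221-3p (0.394). miR-22-3p had 21, 7 and 12 counts, miR-425-5p 22, 9 and 9, and miR-221-3p 38, 20 and 18. Each of them also differed between batches (adjusted p of 0.0168, 0.0229 and 0.0124 in the same exact test). They were chosen from these same counts for their closeness to an uneven pattern, so these p-values are no separate support. Moreover, 3 batches are too few to call patterns alike beyond this description. miR-22-3p, the closest, shares no seed with miR-122-5p.
hsa-miR-22-3p: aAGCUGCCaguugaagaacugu

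Pairs of batches were then compared by an exact binomial test of each miR, adjusted over the same 64 miRs. Between batches 1 and 2, the share of miR-122-5p was 2.74 times higher in batch 1 (95% exact interval 2.15 to 3.52, log2 ratio 1.46, adjusted p = 1.30e-16). In this pair 13 of 64 miRs (20.3%) were higher in batch 1 and 5 lower, and the median ratio was 1.28. With TMM-scaled totals, DESeq2 size factors or totals without the 5 most abundant miRs, every log2 ratio of this pair shifted by -0.45, -0.40 or -0.50, and the split became 5 higher and 12 lower, 5 and 11, or 3 and 7. The ratio of miR-122-5p was then between 1.94 and 2.07 and still passed (adjusted p of 3.97e-08, 6.73e-09 and 6.84e-07, exact binomial test).

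Between batches 1 and 3, the share of miR-122-5p was 1.51 times higher in batch 1 (1.21 to 1.90, log2 ratio 0.60, adjusted p = 0.00102, exact binomial test). Of 64 miRs, 15 (23.4%) were higher in batch 1 and 3 lower, and the ratio of miR-122-5p ranked 27, near the median of 1.34. This difference did not hold under another scaling. The ratio was 1.13 (0.902 to 1.41, adjusted p = 0.560, exact binomial test) with TMM, 1.14 (0.913 to 1.43, adjusted p = 0.501) with DESeq2 size factors and 1.04 (0.837 to 1.31, adjusted p = 0.881) with totals without the 5 most abundant miRs, when every log2 ratio shifted by -0.43, -0.41 or -0.54 and 6, 6 or 4 miRs were higher against 11, 11 or 8 lower.

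Between batches 3 and 2, few miRs moved and miR-122-5p was among them. Its share was 1.81 times higher in batch 3 (1.38 to 2.38, log2 ratio 0.86, adjusted p = 0.000545, exact binomial test), the 4th highest ratio of 64, where the median was 0.963. Of the 64 miRs, 2 (3.12%) were higher in batch 3, miR-122-5p and miR-423-5p, an abundant EV miR whose ratio was 1.19. Another 3 were lower, the inflammation miRs miR-146a-5p (0.582) and miR-146b-5p (0.477) and miR-28-3p (0.219). Under the 3 other scalings the ratio of miR-122-5p was 1.78 to 1.86, and the adjusted p over these and the other filters on low counts was 0.000186 to 0.00220 (exact binomial test).

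**Figure D2:**
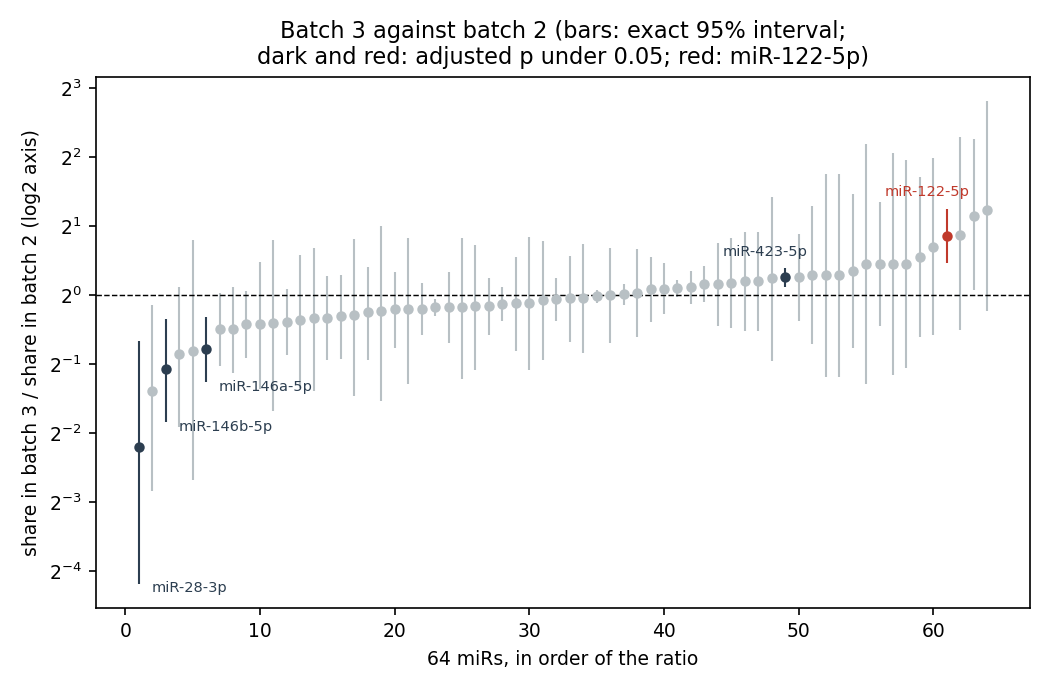
Ratio of the share in batch 3 to that in batch 2 (log2 axis) for the 64 miRs with at least 30 counts in sum, in order of the ratio, with exact 95% intervals as bars. miR-122-5p (red) at 1.81 stands 4th from the top, and beside it miR-423-5p at 1.19 was higher in batch 3 while 3 miRs (dark, left) were lower.

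A ratio of 2 miRs within a library does not depend on the library total, so miR-122-5p was also set against each other miR. Its ratio to miR-148a-3p was 0.236 in batch 1, 0.0717 in batch 2 and 0.146 in batch 3, or -2.08, -3.80 and -2.77 on the log2 scale (adjusted p = 1.20e-18, Freeman-Halton exact test adjusted over 2016 pairs of miRs). Its ratio to miR-192-5p was 0.923, 0.300 and 0.502, or -0.12, -1.73 and -0.99 on the log2 scale (adjusted p = 4.55e-12, same exact test). miR-122-5p thus came close to miR-192-5p in batch 1 and fell well below it in batch 2. Its ratios to miR-148a-5p were 9.39, 14 and 18.6, a difference that did not pass with 7 counts of miR-148a-5p in batches 2 and 3 (adjusted p = 0.476, exact test). Against miR-378a-3p the log2 ratio was 0.59, -0.53 and 0.23 (adjusted p = 0.000319, exact test), and against miR-92a-3p it also differed (adjusted p = 0.00101, exact test).

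Over all 63 other miRs, the ratio of miR-122-5p differed between batches for 39, where 461 of 2016 pairs (22.9%) differed and the median miR differed from 14 others. The same number, 39, was reached by miR-191-5p, the most abundant miR, and only miR-21-5p, a miR common to most cell types, had more, at 48. Among the 10 miRs with at least 444 counts the number ran from 17 to 48. The ratio of miR-122-5p was lowest in batch 2 for 38 of the 39 miRs that differed and for 57 of all 63. The ratio was highest in batch 1 for 37 of the 63 and in batch 3 for 25. All these ratios share the counts of miR-122-5p, whose own share was lowest in batch 2, so they are not separate results. Without replicate 2 the number fell to 11 of 53 (rank 23, median 7.5), without replicate 1 it was 20 of 49 (rank 1, median 0), and without replicate 3 it was 37 of 58.

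**Figure D3:**
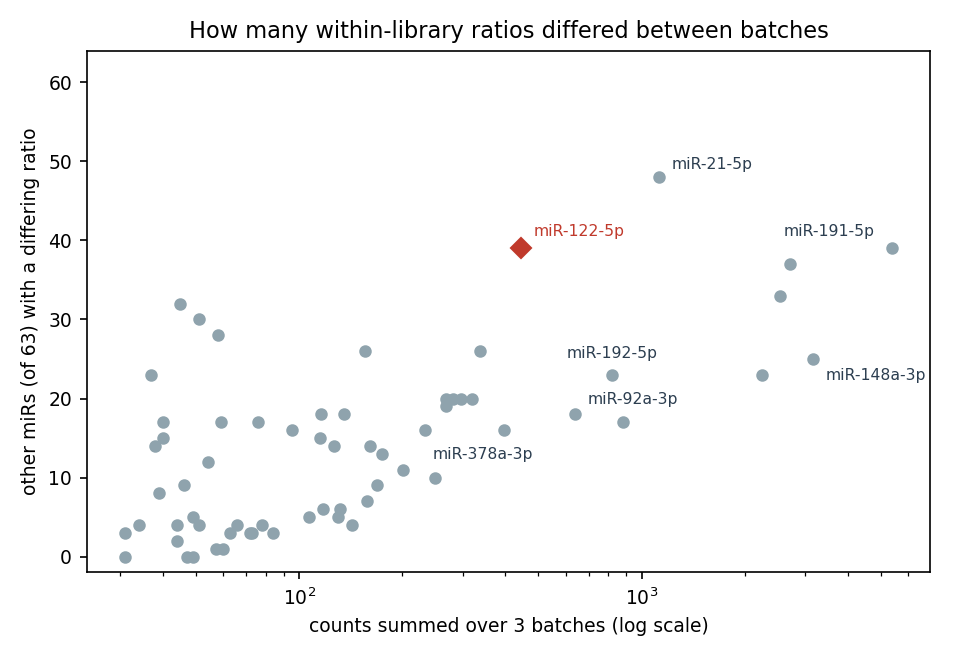
For each of the 64 miRs with at least 30 counts, its counts summed over the 3 batches (log scale) and the number of the 63 other miRs to which its within-library ratio differed between batches (adjusted p under 0.05, Freeman-Halton exact test). miR-122-5p (red) reached 39 with 444 counts, as many as miR-191-5p, and miR-21-5p reached 48.

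miR-122 was counted almost wholly from its 5p arm. miR-122-3p had 0, 1 and 0 counts, so 1 of 445 counts (0.225%, exact 95% interval 0.00569 to 1.25%) came from the 3p arm. By the same exact interval, the 0 of 216 in batch 1 allows a share of up to 1.69% of the precursor's counts. The 0 of 130 in batch 3 allows up to 2.80%, while batch 2 had 1 of 99 (1.01%, up to 5.50%). With 0.5 added to each arm, the mean log2 ratio of 5p to 3p was 7.61 ± 1.41 (SD, n = 3), a value that moved to 6.81 with 1 added and to 8.36 with 0.25 added.

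Such one-sided use was common among the precursors. Both arms were listed for 120 precursors, and 39 of them had at least 30 counts on both arms together, 17 with more on the 5p arm. The median minor arm share of these was 0.252%, and miR-122 ranked 19 from the smallest. In 16 precursors the minor arm had no count, miR-192 with 820 to 0 among them, and miR-191 (5387 to 1, 0.0186%) and miR-21 (1124 to 1, 0.0889%) also had smaller shares than miR-122. The minor arm share differed from that of miR-122 for 12 of 38 precursors (31.6%; Fisher's exact test on summed counts, Benjamini-Hochberg adjustment). It was higher in all 12, but against 1 of 445 counts a lower share could not have passed at these depths. Even miR-192 with 0 of 820 and miR-191 with 1 of 5388 had adjusted p of 0.637 and 0.328 (same Fisher's exact test). Among the 5 precursors with most counts, miR-423 differed, with 25.8% of 3415 counts on its minor arm (adjusted p = 1.29e-50, Fisher's exact test), as did miR-483, with 4.87% of 2360 (adjusted p = 3.15e-07). miR-148a had 1.15% of 3206 counts on its 5p arm, an excess over miR-122 that did not pass (adjusted p = 0.201, Fisher's exact test). The number that differed was 19 of 57 with a minimum of 10 counts, 5 of 19 with a minimum of 100 and 6 of 28 without replicate 1.

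**Figure D4:**
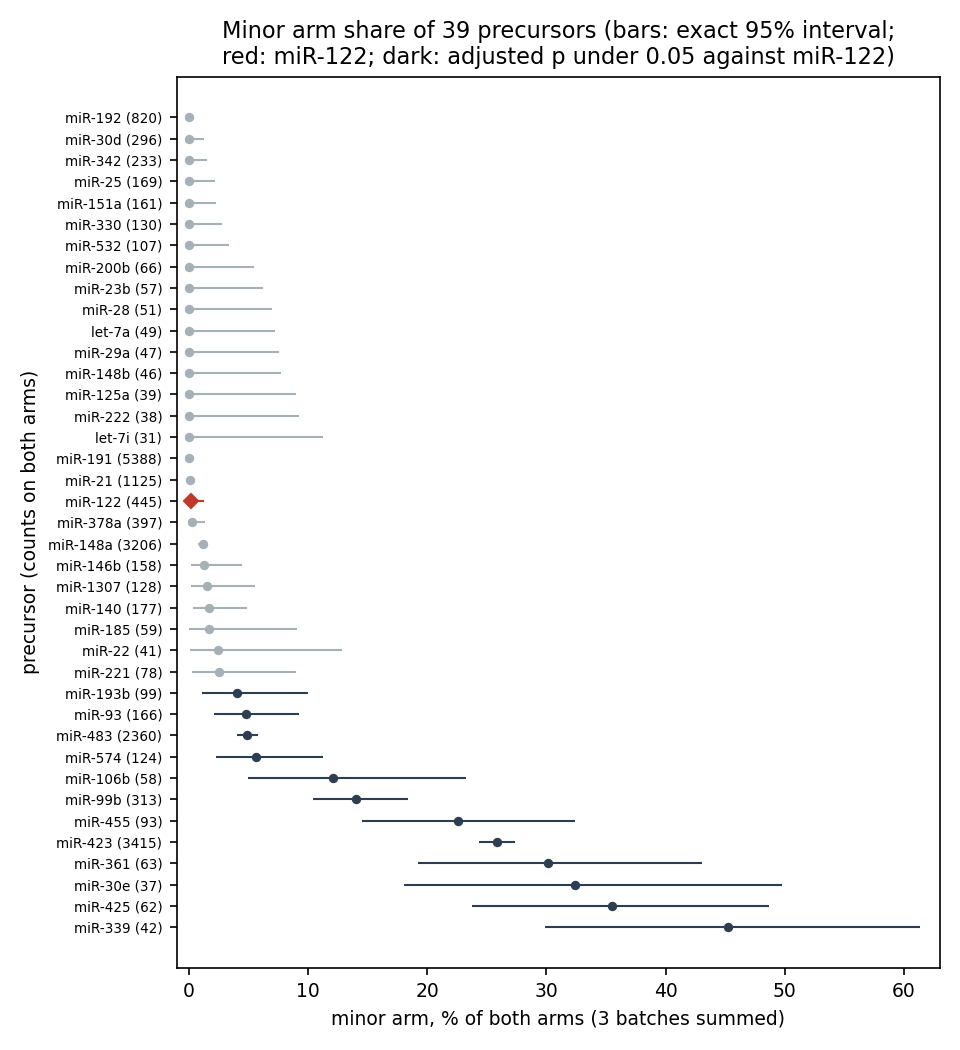
Minor arm counts as a percentage of both arms, summed over the 3 batches, for the 39 precursors with at least 30 counts, with exact 95% intervals as bars and the counts of both arms in parentheses. miR-122 (red) at 0.225% lies close to 0, and the 12 precursors that differed from it (dark) hold 4.04 to 45.2% on their minor arm.

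The study's interest in these miRs lies in fibrosis genes, so the sequences that miR-122-5p could meet there were examined. The study predicted sites of miR-122-5p in COL14A1 and COL27A1, which encode collagens, and in MMP7 and MMP24, which encode matrix metalloproteinases. It used miRWalk, a random-forest method that scans the full transcript, coding sequence and both untranslated regions included. Of the 4 site sequences, 3 were found in GENCODE 29 transcripts, each in the last exon of its gene, and none of the 4 held the whole seed match ACACTCC, the complement of bases 2 to 8. The 3 that were found are shown with the bases that match part of the seed in capitals.
MMP7 site: gaattgataagcactgttcctcCACTCCat
MMP24 site: acacctgtcCACTCacat
COL27A1 site: aaacccattgtcattagCTCCaa
The MMP7 site lies on the minus strand at chr11:102520684-102520715 (its last 30 of 32 bases are shown) and matches seed bases 2 to 7. Its complementary run also takes in base 1, so 7 bases opposite positions 1 to 7 of miR-122-5p are matched. The MMP24 site at chr20:35276383-35276400 matches bases 3 to 7, and the COL27A1 site at chr9:114311953-114311975 matches bases 2 to 5. In COL27A1 the longest complementary run was elsewhere, 9 bases opposite positions 8 to 16 of miR-122-5p, capitalized below.
COL27A1 run: aaacCCATTGTCAttagctccaa
The COL27A1 site was in 1 of 8 annotated transcripts, the MMP7 site in 1 of 3 and the MMP24 site in the single one. The COL14A1 site matches seed bases 3 to 7 and was in none of 9 transcripts.

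Every gene's longest 3′ UTR was then searched for the whole seed match, on the mRNA strand only. ACACTCC occurred in 1562 of 19132 genes (8.16%; median 3′ UTR of 1103.5 bases). Among 44 collagen genes, 23 MMP genes, 4 TIMP genes and ACTA2, it occurred in 5 of 72 (6.94%; median 1052 bases), namely COL25A1, COL4A2, COL4A4, COL5A1 and MMP16, with 2 matches in COL4A4 and 1 in each of the others. None of the 4 genes with a predicted site was among them, but those predictions used another criterion and were not limited to 3′ UTRs. The COL4A2 match lies in exon 4 of a transcript of 4 exons, while that of COL25A1 lies in exon 39 of 39 and those of COL4A4 in exon 48 of 48. Only the transcript with the longest 3′ UTR was searched for each gene. Whether other COL4A2 transcripts hold the match in their 3′ UTR was not examined. COL5A1, a chain of the fibril collagen type V, is shown with its match in capitals, at chr9:134843549-134843555 in exon 66 of 66.
COL5A1 match: ccactgggcaggatagccaagcACACTCCc
The match also occurred in 5 of 5 genes known as miR-122 targets and chosen after the other results were seen. Known targets may owe their place to such a match, so this count is no benchmark for the fibrosis genes. SLC7A1, a transporter of cationic amino acids, held 3 matches and the glycolytic gene ALDOA 2, while CCNG1, the glycolytic gene PKM and P4HA1, a subunit of the collagen prolyl hydroxylase, held 1 each. The P4HA1 match is at chr10:73008121-73008127 on the minus strand and the first SLC7A1 match at chr13:29513383-29513389 on the minus strand.
P4HA1 match: ttcaggagtttacaattgactaACACTCCa
SLC7A1 match: atccacagtccatgaaattgtgACACTCCa
These are matches of letters in annotated transcripts, and no mRNA or protein was measured in the samples used here.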

How the data were processed

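Small RNA of 3 batches of HepG2 EVs was sequenced with NEBNext libraries on an Illumina MiniSeq, and the authors checked quality with miRTrace 1.0.1. The authors deposited raw counts per miR and batch, and the submitters' notes name GRCh38. The aligner was not given in the sources used here, nor was the counter. A second deposited sheet repeats the counts of 205 miRs and was not used further, nor was the authors' mean column.

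Shares were taken of each batch's total count. Batches were mapped by their titles, and all 3 entered every test alike. miRs with at least 30 counts in sum were tested by exact enumeration (multinomial, binomial and Freeman-Halton tests), arms by Fisher's exact test, with Benjamini-Hochberg adjustment over all features tested and a threshold of 0.05. At these depths the precision of a share is given by its 95% interval. Alternatives were TMM (edgeR 4.0.16) and DESeq2 1.42.0 size factors, which were used for scaling only, totals without the 5 leading miRs, other count minimums, pseudocounts and each batch left out. The multinomial test was run on simulated counts and compared with a brute-force computation. The exact code used for arms was compared with an independent Fisher's exact test. No such check was made of the binomial test or of the Freeman-Halton test over 3 batches.

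Named miRs were both arms, the hepatocyte and lipid lists, the neighbors in rank, the 3 closest patterns, the 5 precursors with most counts and those with a smaller minor arm share, miRs with a shared seed, and genes with predicted sites or seed matches. miR-423-5p, miR-146a-5p, miR-146b-5p, miR-28-3p, miR-21-5p and miR-191-5p were also named after their values were seen. The members and lists were chosen with earlier results of these data known. Sequences came from RefSeq (GRCh38.p14) and GENCODE 29, and site sequences from the study's predictions, and coordinates are 1-based. Sequence on chromosome 8 is not reported here. Python 3.11.15, numpy 2.4.6, scipy 1.17.1, pandas 2.3.3, matplotlib 3.10.9 and R 4.3.3 were used.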

Additional observations from a re-analysis of the deposited data

How the results depend on the processing

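The difference of miR-122-5p over the 3 batches passed under each scaling, filter and batch left out (adjusted p from 1.20e-16 without replicate 3 to 0.000863 without replicate 2), with the order 1, 3, 2 under each scaling. Only the difference between batches 1 and 3 was lost, with TMM (adjusted p = 0.560, exact binomial test), DESeq2 size factors (0.501) and totals without the 5 leading miRs (0.881), and it was kept under the other filters (0.00158 and 0.00438). The number of miRs whose ratio to miR-122-5p differed was 39 and ran from 11 (without replicate 2) to 37 with a batch left out, when fewer samples and miRs are tested. The precursors that differed in arm use numbered 12, against 19 with a minimum of 10 counts, 5 with a minimum of 100, and 6 to 11 with a batch left out. The mean share of miR-122-5p was 3.91% of totals without the 5 leading miRs, which shrinks the denominator, and 1.27 to 2.06% with a batch left out. A mean of 3 batches can hardly move by 1 SD when 1 is left out, so that range says little about stability. Pairs of batches have no batch to leave out. No paired analysis was possible because all samples belong to 1 group. The 3p arm had 1 count in all, so little can be said of it at this depth.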
